A study of Mus musculus with 9 samples.

Results

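The genes described here encode the proteins of the mitochondrial ribosome. They were chosen as the rows whose symbol begins with Mrpl or Mrps and a number, without pseudogenes, which gave 77 of the 47729 genes counted. Of these, 48 carried a large subunit symbol (Mrpl) and 29 a small subunit symbol (Mrps). RNA was sequenced from YFP-positive midbrain dopamine (DA) neurons sorted by FACS from C57/Bl6 mouse embryos at E15.75. All embryos were Pitx3-Cre/+, so that Cre recombinase was made from the Pitx3 locus, which is active in DA neurons after their last division, and carried the Rosa-lox-stop-lox-YFP reporter, which Cre switches on. They differed in the gene for the histone methyltransferase Dot1l, which was wild type, Dot1l(+/+), or had a single exon flanked by loxP sites on one copy, Dot1l(fl/+), or on both, Dot1l(fl/fl). Embryos were pooled for each library, as the study's methods state, and 3 Dot1l(+/+), 3 Dot1l(fl/+) and 2 Dot1l(fl/fl) libraries were analysed. The latter are called fl/fl-labelled, and the sample Dot1l(fl/fl) 3 was not analysed here.

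The mitochondrial ribosome translates the few messages encoded by mitochondrial DNA, which specify core subunits of the respiratory chain and the ATP synthase. Its rRNAs come from mitochondrial DNA, but all its proteins are encoded in the nucleus, made in the cytosol and imported. About its core of bacterial-type proteins it has gathered others that bacteria lack, and DA neurons, with their large arbors and steady firing, depend heavily on respiration.

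Library totals ranged from 13616922 to 43674673 counts, with both fl/fl-labelled libraries below the others. Dot1l itself was at 105, 84.6 and 94.6 CPM (counts relative to the TMM-scaled total of each library) in Dot1l(+/+) 1 to 3, 75.5, 65.6 and 76.2 CPM in Dot1l(fl/+) and 64.9 and 99.1 CPM in the fl/fl-labelled libraries. The second of these lay within the Dot1l(+/+) range, against its label, although a count over the whole gene says little about the loss of a single exon. The 10 DA neuron markers were present in every library, at 128 CPM or more, and their summed level was 5150–5680 CPM in Dot1l(+/+), 4880–5390 CPM in Dot1l(fl/+) and 4240–4860 CPM in the fl/fl-labelled libraries. In bulk RNA, fewer cells of a type and less RNA per cell cannot be told apart.

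Of the 77 genes, 76 had enough counts to be tested, 47 Mrpl and 29 Mrps. The row named Mrpl33 (ENSMUSG00000105617), annotated as a non-coding transcript, had a count of 0 in all 8 libraries. A second row without a symbol (ENSMUSG00000106918), which the annotation gives as protein-coding Mrpl33, is outside the rule and was looked up after the values were seen. It was at 20.7, 26.3 and 21.1 CPM in Dot1l(+/+), 31.7, 27.1 and 30.4 CPM in Dot1l(fl/+) and 34.1 and 34.1 CPM in the fl/fl-labelled libraries. All 5 libraries with a floxed allele lay above all 3 without one, and the log2 fold change was 0.58 ± 0.18 (SE; edgeR, adjusted p = 0.268) in Dot1l(fl/fl) and 0.39 ± 0.16 (adjusted p = 0.94) in Dot1l(fl/+).

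Promoter sequences are shown first, for genes that are spread over many chromosomes. Whether they bear on the differences between genotypes was not tested. RefSeq (GRCm38.p6) gave windows from 250 bases before to 50 after the start for 68 of the 77 genes. The stretches from 150 bases before to 30 after the start are printed for the 2 Mrpl and 2 Mrps genes with the smallest p in Dot1l(fl/fl) that had a window, and for Mrps12, in the direction of transcription, with matches to 3 motifs in capitals. The motifs were GCGCA and GCGC with any base between them, bound by NRF1, CCGGAAG, bound by ETS factors such as GABP, and ATGGCGG, from the site of YY1, each read on both strands, and none of the 3 contains another.
Mrpl12, chr11:120484487-120484666, + strand: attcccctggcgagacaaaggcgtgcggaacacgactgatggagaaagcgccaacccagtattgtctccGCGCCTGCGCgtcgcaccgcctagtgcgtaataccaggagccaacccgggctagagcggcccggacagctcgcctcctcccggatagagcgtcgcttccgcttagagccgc
Mrpl46, chr7:78783060-78783239, - strand: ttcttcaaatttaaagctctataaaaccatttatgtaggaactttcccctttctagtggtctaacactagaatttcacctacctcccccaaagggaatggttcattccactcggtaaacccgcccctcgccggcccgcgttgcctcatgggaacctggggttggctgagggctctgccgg
Mrps24, chr11:5707672-5707851, - strand: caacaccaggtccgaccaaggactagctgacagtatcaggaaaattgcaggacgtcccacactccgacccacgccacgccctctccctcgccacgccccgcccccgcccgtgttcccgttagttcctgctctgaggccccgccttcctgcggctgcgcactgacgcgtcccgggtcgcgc
Mrps23, chr11:88204238-88204417, + strand: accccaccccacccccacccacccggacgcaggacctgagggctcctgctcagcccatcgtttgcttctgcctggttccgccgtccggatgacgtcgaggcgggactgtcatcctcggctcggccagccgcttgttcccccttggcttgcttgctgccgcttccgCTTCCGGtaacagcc
Mrps12, chr7:28741792-28741971, - strand: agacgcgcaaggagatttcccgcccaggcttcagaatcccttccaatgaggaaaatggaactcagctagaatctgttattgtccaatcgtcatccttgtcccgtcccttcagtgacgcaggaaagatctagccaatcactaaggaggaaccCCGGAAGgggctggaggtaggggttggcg

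Mrpl12 held the NRF1 letters, beginning 81 bases before its start, and Mrps23 and Mrps12 each held the ETS letters, close behind their starts. Mrpl46 and Mrps24 held none of the 3 motifs in the stretches shown. Over the 74 windows of these genes, the ETS letters occurred in 33.8%, against 8.86% of all 32851 windows. The NRF1 letters occurred in 17.6% against 4.6%, and the YY1 letters in 17.6% against 4.05%. CCAAT occurred in 40.5% against 37.4%, CACGTG in 9.46% against 7.15%, and TATAAA in 6.76% against 13.6%. A match is a match of letters only. The median log2 fold change in Dot1l(fl/fl) was 0.23 in the 13 tested genes with the NRF1 letters and 0.23 in the 54 without, and 0.24 in the 24 with the ETS letters against 0.22 in the 43 without. It was 0.22 in the 13 with the YY1 letters and 0.23 in the 54 without. A protein-coding neighbour transcribed away from the same start region, within 1000 bases and without overlap at the starts, was annotated for 18 of 76 genes (23.7%). The share was 9.38% of 14469 protein-coding genes tested. Pairs that overlap at their starts, such as Mrpl46 with Mrps11, were not counted. Among the counted pairs are Mrps12 with Sars2, 172 bases apart, and Mrpl49 with Fau, 59 bases apart.

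In Dot1l(+/+) neurons the mitoribosomal genes were mostly transcribed at a moderate level. Their median was 11.8 CPM per kb of exon, against 3.82 over all genes tested, with a median of 14.1 for Mrpl and 10.7 for Mrps. The highest were Mrpl34, at 70.1 ± 11.3 CPM per kb (SD, n = 3), Mrpl41 at 46.1 ± 9.08 and Mrpl28 at 39.3 ± 5.94, all of the large subunit. Mrpl41 and Mrpl28 did not differ beyond their spread. Mrpl20 followed at 34.5 ± 0.898 CPM per kb, and Mrpl12 and, in the small subunit, Mrps6 at 33.4 ± 6.48 and 33.4 ± 3.7 CPM per kb. Mrps23, Mrps15 and Mrps24 were the next of the small subunit, at 31.7 ± 1.89, 23.3 ± 0.927 and 22.7 ± 4 CPM per kb. The order depends on the length used, since with the longest transcript in place of all exons Mrpl20 moved to the top, at 70.8 CPM per kb, beside Mrpl34. Mrpl3, Mrpl51, Mrpl53, Mrps6, Mrps18c, Mrps24 and Mrps34 share exonic bases on the same strand with other genes, so that their levels are less certain.

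**Figure D1:**
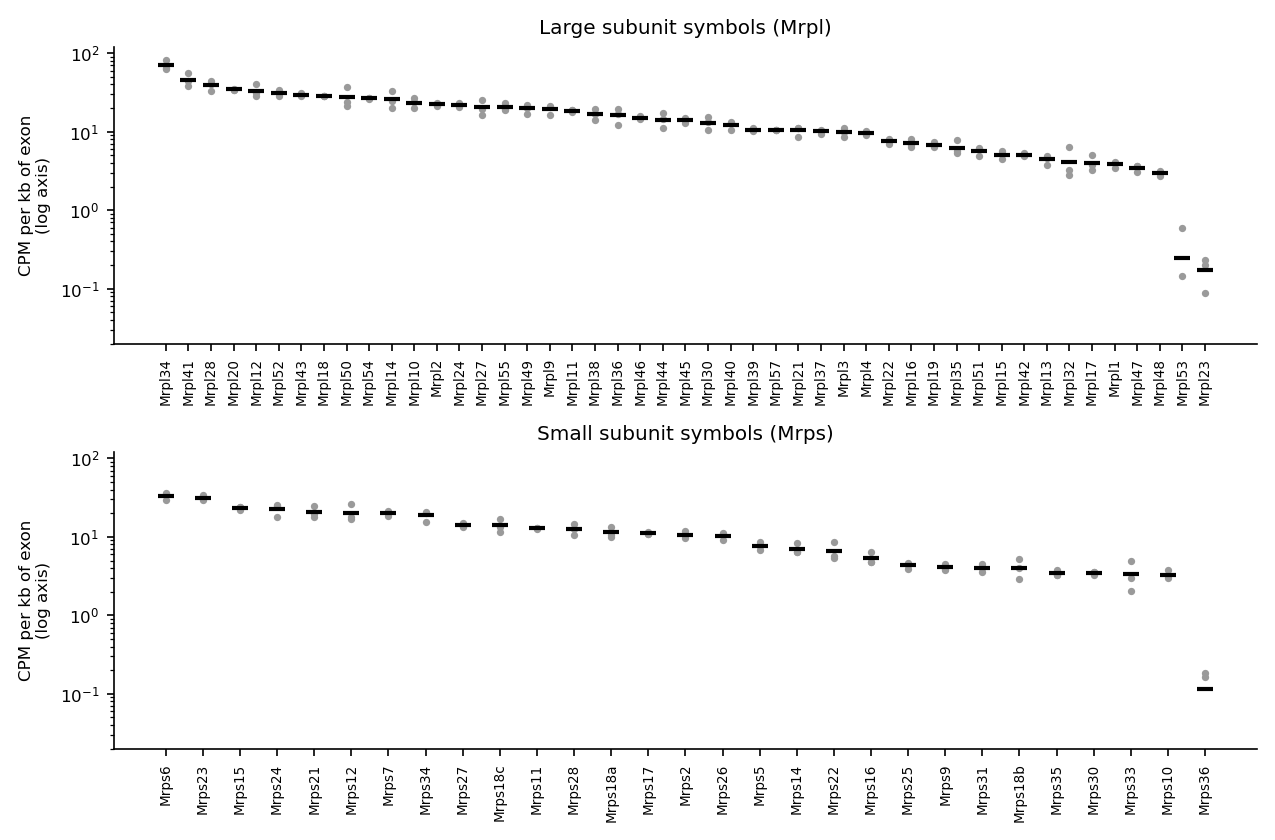
Level of each mitoribosomal gene in Dot1l(+/+) neurons, in CPM per kb of exon on a log axis, with the large subunit above and the small subunit below. Gray points are the 3 libraries (values of 0 cannot be drawn), black bars their means. All but Mrpl53, Mrpl23 and Mrps36 lie between 2.96 and 70.1 CPM per kb.

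At the low end, Mrpl48, Mrps10 and Mrps33 were at 2.96, 3.3 and 3.35 CPM per kb, and 3 genes were far below all others. Mrpl23 had 25, 15 and 49 counts in Dot1l(+/+), 46, 12 and 50 in Dot1l(fl/+) and 2 and 2 in the fl/fl-labelled libraries. It was thus at or below the floor of 3 counts only in the last, which were also the shallowest libraries. Scaled for depth it was at 0.109 and 0.144 CPM there, against 0.427–1.13 CPM in Dot1l(+/+) and 0.422–1.76 CPM in Dot1l(fl/+). The log2 fold change in Dot1l(fl/fl) was -2.70 ± 1.37 (SE), with an unadjusted p of 0.061 (edgeR). Mrpl53 had 0 to 21 counts per library and shares 695 exonic bases on the same strand with Gm42688. Mrps36, whose product is now assigned to a dehydrogenase complex rather than to the ribosome, had 0 to 28 counts. No fold is given for Mrpl53 and Mrps36. Mrpl23 and Mrps36 have processed pseudogenes, to which their reads could have been assigned.

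In Dot1l(fl/fl) neurons most mitoribosomal genes were slightly higher than in Dot1l(+/+), and none passed the test. No gene of the 76 had an edgeR adjusted p under 0.05, as was the case over all 17988 genes (0%), while DESeq2, which adjusted p over fewer genes, called 0 of the 47 mitoribosomal genes it kept, against 2.6% of all genes it kept. The log2 fold change was above 0 for 68 of 76, against 49.5% of all genes tested. By subunit it was above 0 in 42 of 47 Mrpl genes, with a median of 0.18 (1.13-fold), and in 26 of 29 Mrps genes, with a median of 0.26 (1.2-fold), while the median over all genes was 0.00. At an unadjusted p under 0.05, 10 were higher (6 Mrpl and 4 Mrps; 4.24% of all genes) and 0 were lower (5.03% of all genes), and DESeq2 gave 11 higher (3.45% of all genes). The 10 became 6 with a replicate block, 4 with the block and an offset for GC content and exon length, 5 without Dot1l(+/+) 3 and 6 without the second fl/fl-labelled library. Both fl/fl-labelled libraries lay above all Dot1l(+/+) libraries for 29 genes (38.2%, against 12.1% of all genes) and below them for 2 (11.6% of all genes). The study examined this gene group on the same samples, so its direction here is not independent evidence.

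The median over the 47 Mrpl genes of log2 CPM, relative to the Dot1l(+/+) mean, was 0.01, 0.08 and -0.07 for Dot1l(+/+) 1 to 3, 0.11, 0.10 and 0.23 in Dot1l(fl/+), and 0.20 and 0.22 in the fl/fl-labelled libraries. For the 29 Mrps genes it was -0.04, 0.11 and -0.08 in Dot1l(+/+), 0.16, 0.05 and 0.24 in Dot1l(fl/+), and 0.30 and 0.19 in the fl/fl-labelled libraries. The fl/fl-labelled libraries did not overlap with Dot1l(+/+) in either subunit, while Dot1l(fl/+) 3 stood beside them and Dot1l(fl/+) 2 fell within the Dot1l(+/+) range for Mrps. The fl/fl-labelled library 2, with its Dot1l level in the Dot1l(+/+) range, was as high as the other for Mrpl and lower for Mrps. Without it the medians of the log2 fold changes were 0.18 for Mrpl and 0.29 for Mrps. The members took 0.217–0.255% of all counts in Dot1l(+/+), 0.251–0.282% in Dot1l(fl/+) and 0.274–0.277% in the fl/fl-labelled libraries.

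Gene length moved with the comparison. Over all genes, the median log2 fold change in Dot1l(fl/fl) was lower for genes with more exonic sequence, from 0.13 in the shortest of 4 equal bins to 0.06, -0.02 and -0.10 in the longer ones, and these genes are short, with a median exon length of 2214 bases against 3827. Within the same 4 bins the mitoribosomal genes had medians of 0.19 (37 genes), 0.24 (17), 0.17 (11) and 0.28 (11). With an offset for GC content and exon length, the medians in Dot1l(fl/fl) were 0.10 for Mrpl and 0.19 for Mrps, and 59 of 76 were above 0. On that scale Dot1l(+/+) 2 was at 0.14 for Mrpl, above both fl/fl-labelled libraries at 0.13, so that the groups overlapped. Genes of the response to dissociation were also higher, with a summed level of 937–1080 CPM in Dot1l(+/+), 903–1140 CPM in Dot1l(fl/+) and 1240–1260 CPM in the fl/fl-labelled libraries. At an unadjusted p under 0.05 (edgeR), 6 of 8 were higher, against 4.24% of all genes. Of 10 DA neuron markers, 6 were lower at that level, against 5.03% of all genes. Blood markers summed to 13.7–18.1, 11.9–18.7 and 17–40 CPM in the 3 genotypes, and GABAergic markers to 201–217, 191–223 and 232–260 CPM. Their part in the result was not tested. Markers of endothelium, microglia, radial glia and progenitors, oligodendrocyte precursors, and glutamatergic and serotonergic neurons overlapped between Dot1l(+/+) and the fl/fl-labelled libraries, or reached no unadjusted p under 0.05.

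**Figure D2:**
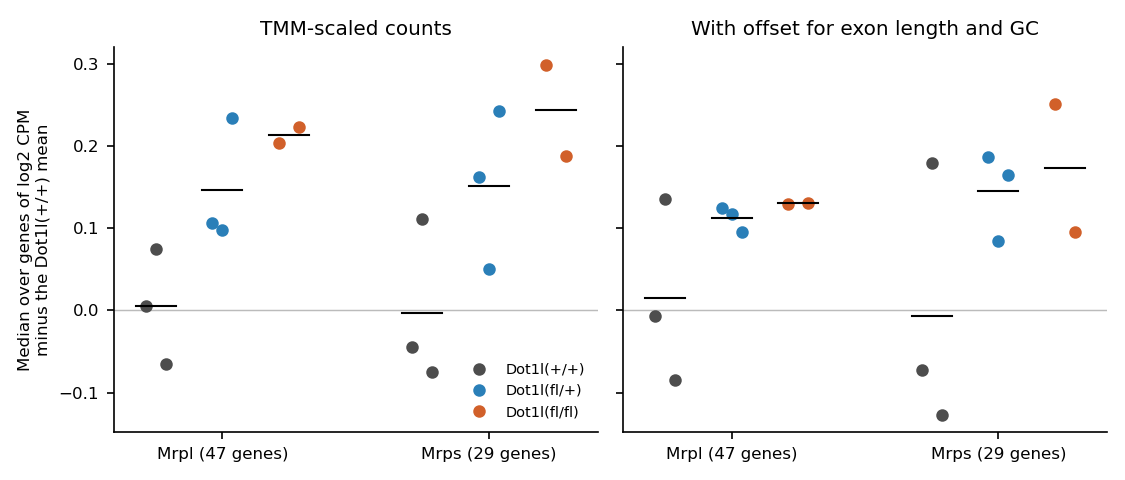
Median over the Mrpl or Mrps genes of log2 CPM minus the Dot1l(+/+) mean, per library (points) with the genotype mean (bars). On the left, for TMM-scaled counts, both fl/fl-labelled libraries lie above all Dot1l(+/+) libraries. On the right, with an offset for GC content and exon length, Dot1l(+/+) 2 lies above both for Mrpl and between them for Mrps.

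In the large subunit, Mrpl12 had the smallest p. It encodes the stalk protein that contacts translation factors and lies at chr11:120484613-120489065 (GRCm38, + strand). It was at 47, 62.5 and 44 CPM in Dot1l(+/+), 53.2, 59.7 and 72.5 CPM in Dot1l(fl/+) and 77.2 and 73.6 CPM in the fl/fl-labelled libraries. The latter lay above all others, while Dot1l(fl/+) overlapped with Dot1l(+/+). The log2 fold change was 0.56 ± 0.16 (SE; edgeR, unadjusted p = 0.00161, adjusted p = 0.248) in Dot1l(fl/fl) and 0.27 ± 0.14 in Dot1l(fl/+). The adjusted p depended on the filter, the method and single libraries. With all libraries it was 0.0296 without a filter on low counts (edgeR) and 0.0517 with DESeq2. Without Dot1l(+/+) 2 it was 0.0353 (edgeR), with a log2 fold change of 0.73. Without Dot1l(+/+) 1 or 3 it was 0.637 and 0.799 (edgeR). The range over all settings was 0.0296 to 0.799. In the linear term over 0, 1 and 2 floxed alleles Mrpl12 gave 0.28 ± 0.08 per allele (edgeR, adjusted p = 0.175), again the smallest of these genes, and 0 of 76 passed (0% of all genes). In that fit 68 of 76 were above 0 (49.8% of all genes), and at an unadjusted p under 0.05, 10 were higher (4.48% of all genes) and 0 lower (5.61% of all genes). DESeq2 called 1 of the 38 it kept, Mrpl12 (adjusted p = 0.0326), against 4.06% of all genes it kept, and gave 16 higher at an unadjusted p under 0.05 (4.51% of all genes).

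Mrpl13, with a bacterial counterpart in the large subunit, was at 37.2, 39.2 and 30.2 CPM in Dot1l(+/+), 48.9, 42.7 and 46.1 CPM in Dot1l(fl/+) and 48.8 and 49 CPM in the fl/fl-labelled libraries. All libraries with a floxed allele lay above all Dot1l(+/+) libraries, and the log2 fold changes were 0.46 ± 0.15 and 0.37 ± 0.14. Mrpl46, which bacteria lack, showed the same order, with 20.6, 22.2 and 21 CPM in Dot1l(+/+), 23.2, 28 and 24.6 CPM in Dot1l(fl/+) and 28 and 28.6 CPM in the fl/fl-labelled libraries. Its log2 fold changes were 0.41 ± 0.18 and 0.25 ± 0.16. Mrpl37, also particular to mitochondria, and Mrpl3 and Mrpl4, core proteins with bacterial counterparts, had log2 fold changes of 0.32 ± 0.14, 0.28 ± 0.13 and 0.35 ± 0.17 in Dot1l(fl/fl) and of 0.16 ± 0.13, 0.08 ± 0.12 and 0.09 ± 0.15 in Dot1l(fl/+). The adjusted p of these 5 genes in Dot1l(fl/fl) lay between 0.311 and 0.537 (edgeR). Mrpl46 shares 173 exonic bases with Mrps11 on the opposite strand, and Mrpl13 shares 330 with Mtbp. Mrpl12 shares 200 with Gm16755 on the opposite strand, and Mrpl3 shares 248 with Gm38077 on the same strand.

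In the small subunit, Mrps24, the counterpart of a bacterial protein near the mRNA entry, was at 35.9, 37.3 and 26.5 CPM in Dot1l(+/+), 41, 44.8 and 49 CPM in Dot1l(fl/+) and 44.2 and 49 CPM in the fl/fl-labelled libraries. All libraries with a floxed allele lay above all Dot1l(+/+) libraries. The log2 fold changes were 0.49 ± 0.17 (edgeR, adjusted p = 0.321) and 0.44 ± 0.15 (adjusted p = 0.94). Mrps9, with a bacterial counterpart, was at 22.6, 21.9 and 26 CPM in Dot1l(+/+), 29.1, 23.3 and 37.6 CPM in Dot1l(fl/+) and 35.3 and 31.2 CPM in the fl/fl-labelled libraries, with log2 fold changes of 0.50 ± 0.19 and 0.35 ± 0.17. Mrps15, of the same class, was at 37.6–40.6 CPM in Dot1l(+/+), 40.3–50.5 CPM in Dot1l(fl/+) and 48.1–48.2 CPM in the fl/fl-labelled libraries.

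Mrps35 and Mrps23, both particular to mitochondria, had Dot1l(fl/+) levels like those of Dot1l(+/+). Mrps35 was at 32.8, 28.1 and 28.2 CPM in Dot1l(+/+), 27.5, 28.5 and 31.7 CPM in Dot1l(fl/+) and 41.6 and 40.5 CPM in the fl/fl-labelled libraries. Mrps23 was at 52.5, 48.9 and 46.7 CPM in Dot1l(+/+), 47.1, 46.7 and 54.5 CPM in Dot1l(fl/+) and 60.2 and 68.2 CPM in the fl/fl-labelled libraries. In neither gene did the latter overlap with the other 6 libraries. Against Dot1l(+/+) the log2 fold changes were 0.47 ± 0.16 and 0.38 ± 0.14, and against Dot1l(fl/+) they were 0.49 ± 0.16 (edgeR, unadjusted p = 0.00651) and 0.38 ± 0.14 (unadjusted p = 0.0131), both with an adjusted p of 0.998. Mrps31, of the same class, had a log2 fold change of 0.48 ± 0.23 in Dot1l(fl/fl) and 0.11 ± 0.21 in Dot1l(fl/+), each against Dot1l(+/+).

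**Figure D3:**
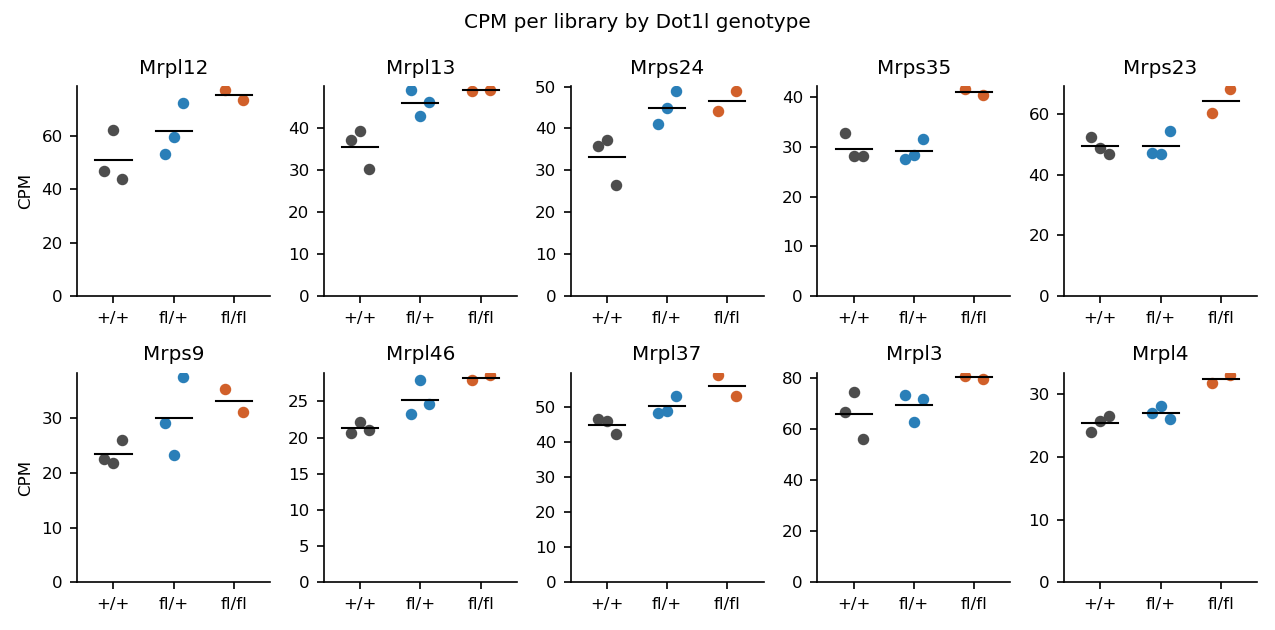
CPM per library (points) and genotype means (bars) for the 10 mitoribosomal genes higher in the fl/fl-labelled libraries than in Dot1l(+/+) at an unadjusted p under 0.05 (edgeR), each on an axis from 0. For Mrpl13, Mrpl46, Mrpl37 and Mrps24 all libraries with a floxed allele lie above all Dot1l(+/+) libraries, while Mrps35 and Mrps23 in Dot1l(fl/+) overlap with Dot1l(+/+).

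Of the 76 genes, 8 had a log2 fold change below 0 in Dot1l(fl/fl). The lowest was that of Mrpl23, at -2.70 ± 1.37, from counts near the floor. Mrps2, with a bacterial counterpart in the small subunit, was at 30.8, 34.6 and 28.4 CPM in Dot1l(+/+), 35.2, 32.3 and 30 CPM in Dot1l(fl/+) and 25.7 and 24.8 CPM in the fl/fl-labelled libraries. The latter lay below all others, with a log2 fold change of -0.31 ± 0.17 (edgeR, unadjusted p = 0.0893). Mrpl22, Mrpl32, Mrps34 and Mrps14 had log2 fold changes of -0.15 ± 0.32, -0.11 ± 0.26, -0.03 ± 0.18 and -0.01 ± 0.22, within their errors of 0. Mrpl32 was at 16, 31.6 and 14 CPM in Dot1l(+/+), and without the middle library its log2 fold change was 0.34. Mrps12, a protein of the decoding centre, had a log2 fold change of 0.01 ± 0.21, with 17.4–26.9 CPM in Dot1l(+/+), 20.5–26.7 CPM in Dot1l(fl/+) and 19.4–23 CPM in the fl/fl-labelled libraries. Of the most abundant genes per length besides Mrpl12, Mrpl34 had a log2 fold change of 0.26 ± 0.16, Mrpl41 of 0.13 ± 0.17, Mrpl28 of 0.11 ± 0.15, Mrpl20 of 0.24 ± 0.13 and Mrps6 of 0.22 ± 0.14.

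**Figure D4:**
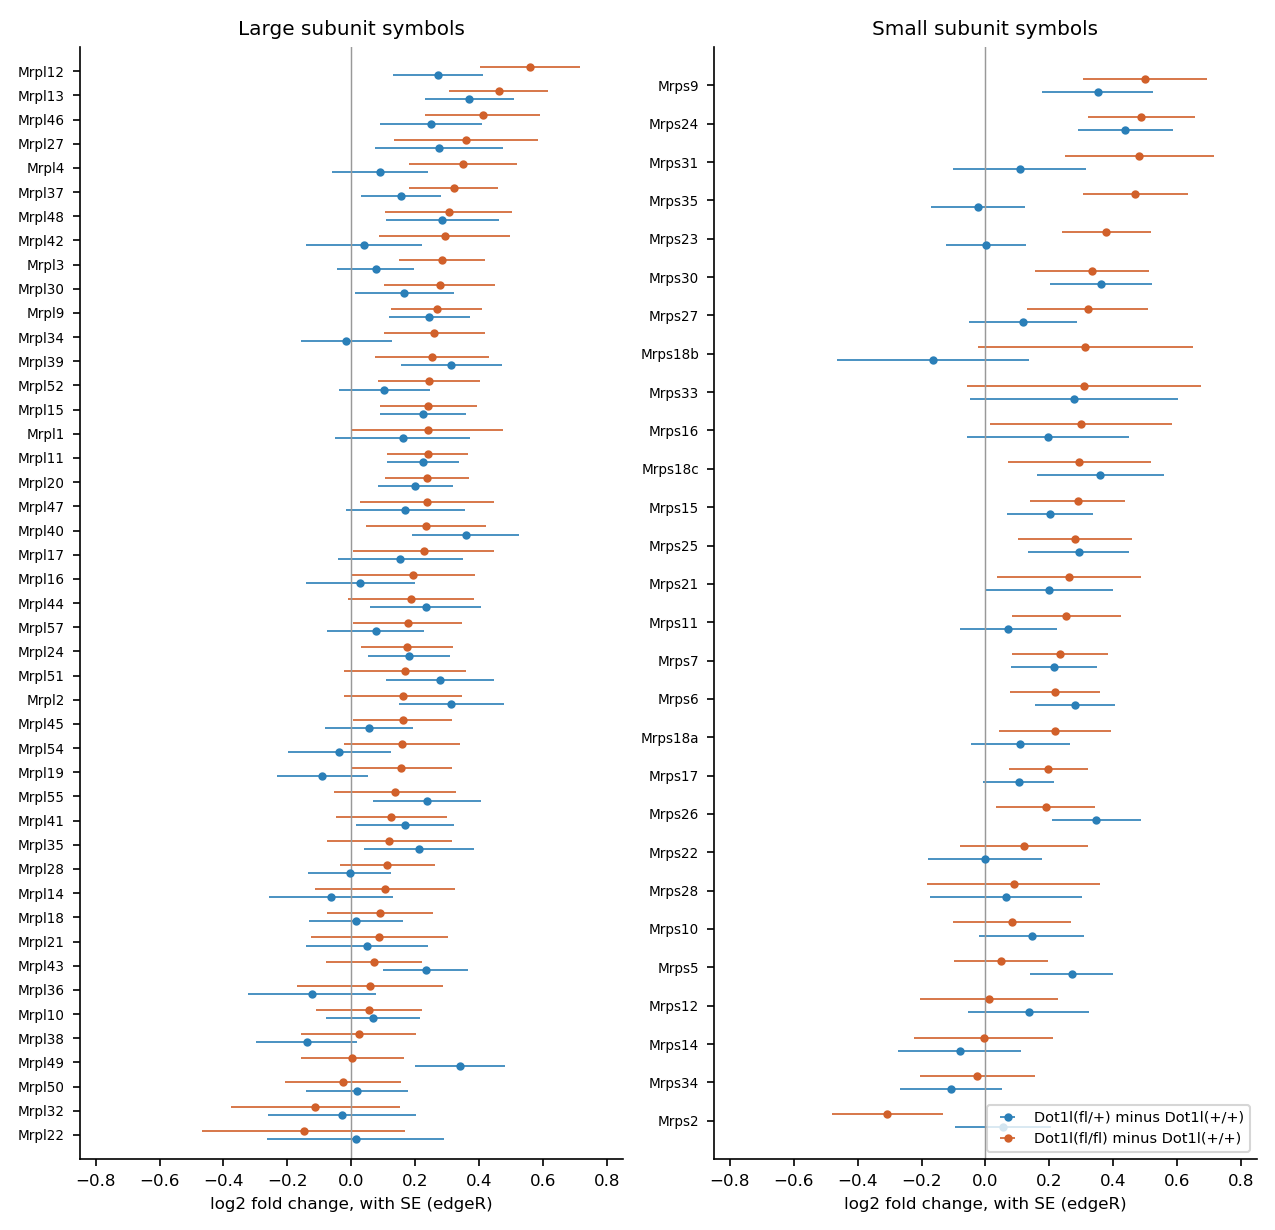
Log2 fold change against Dot1l(+/+) with its SE (edgeR) for 73 mitoribosomal genes, in Dot1l(fl/fl) (orange) and Dot1l(fl/+) (blue), ordered by the former. Mrpl23, Mrpl53 and Mrps36, near the counting floor, are left out. Points lie between -0.31 and 0.56 in Dot1l(fl/fl), most of them right of 0 in both genotypes.

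In Dot1l(fl/+) neurons, compared with the same Dot1l(+/+) libraries, most mitoribosomal genes were also slightly higher, and none passed the test. No gene had an edgeR adjusted p under 0.05 (0% of all genes), and DESeq2 also called 0 of 76 (0% of all genes). The log2 fold change was above 0 for 63 of 76 (49% of all genes), with medians of 0.17 for Mrpl and 0.14 for Mrps and of -0.01 over all genes. At an unadjusted p under 0.05, 8 were higher (2.16% of all genes) and 0 lower (2.86% of all genes), and DESeq2 gave 9 higher (2.19% of all genes). Single libraries moved these values. Leaving out Dot1l(+/+) 2 gave 14 higher and a Mrps median of 0.24. Leaving out Dot1l(+/+) 3 gave 5 higher, a Mrpl median of 0.09 and a Mrps median of 0.08. Leaving out Dot1l(fl/+) 3 gave 4 higher and a Mrps median of 0.09. All 3 libraries lay above all Dot1l(+/+) libraries for 16 genes (12 Mrpl and 4 Mrps, 21.1%, against 5.56% of all genes) and below them for 0 (5.97% of all genes). Both genotypes lay above for 8, namely Mrpl9, Mrpl11, Mrpl13, Mrpl20, Mrpl37, Mrpl46, Mrps24 and Mrps30 (2.57% of all genes). Since the comparisons share their controls, this count is a description only. The length trend was also present in this comparison, with medians over all genes of 0.08, 0.03, -0.01 and -0.07 from the shortest to the longest bin. With the offset for GC content and exon length, 58 of 76 were above 0. On that scale Dot1l(+/+) 2 was at 0.135 for Mrpl, above the Dot1l(fl/+) libraries at 0.125, 0.117 and 0.095.

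Beside Mrps24 and Mrpl13, the genes with the smallest p in Dot1l(fl/+) included Mrps26, at 47, 39.6 and 48.3 CPM in Dot1l(+/+), 64.1, 47.3 and 60.1 CPM in Dot1l(fl/+) and 55.1 and 47.2 CPM in the fl/fl-labelled libraries. The 3 Dot1l(fl/+) libraries overlapped with Dot1l(+/+), with a log2 fold change of 0.35 ± 0.14 (edgeR, unadjusted p = 0.0197). Mrpl49, particular to mitochondria, was at 38.2, 41.6 and 31.5 CPM in Dot1l(+/+), 50, 44.5 and 46.3 CPM in Dot1l(fl/+) and 39 and 35.3 CPM in the fl/fl-labelled libraries. Only the Dot1l(fl/+) libraries lay above all Dot1l(+/+) libraries. The log2 fold change was 0.34 ± 0.14 in Dot1l(fl/+), 0.00 ± 0.16 in Dot1l(fl/fl) and -0.34 ± 0.16 between them (edgeR, unadjusted p = 0.0479, adjusted p = 0.998). Mrpl40, of the same class, had log2 fold changes of 0.36 ± 0.17 in Dot1l(fl/+) and of 0.23 ± 0.19 in Dot1l(fl/fl).

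Mrps30 carries a small subunit symbol, but its product is placed in the large subunit. It was at 23.5, 21.6 and 23.6 CPM in Dot1l(+/+), 25.6, 31.9 and 30.8 CPM in Dot1l(fl/+) and 26.7 and 31.1 CPM in the fl/fl-labelled libraries, with log2 fold changes of 0.36 ± 0.16 and 0.33 ± 0.18. The paralogs Mrps18a, Mrps18b and Mrps18c, of which the first is placed in the large subunit, had log2 fold changes of 0.22 ± 0.18, 0.31 ± 0.34 and 0.29 ± 0.22 in Dot1l(fl/fl) and of 0.11 ± 0.16, -0.16 ± 0.30 and 0.36 ± 0.20 in Dot1l(fl/+). Mrps18b, at 4.39–12.5 CPM, was the lowest of the 3 and had the widest error.

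Between the 2 genotypes with floxed alleles, the medians of these genes were nearer to 0. Values here are Dot1l(fl/fl) against Dot1l(fl/+). No gene had an edgeR adjusted p under 0.05 (0% of all genes), and DESeq2 called 0 of the 76 (0.00422% of all genes). The log2 fold change was above 0 in 50 of 76 (50.2% of all genes), with medians of 0.07 for both Mrpl and Mrps. The Dot1l(fl/+) libraries moved both medians, which were 0.001 and 0.04 without the second of them and 0.11 and 0.12 without the third, and the Mrpl median was 0.01 without the first. With the offset for GC content and exon length they were 0.02 for Mrpl and 0.01 for Mrps, and with a replicate block added the Mrps median was -0.01. At an unadjusted p under 0.05, 2 were higher, Mrps35 and Mrps23 (1.86% of all genes; by DESeq2 also 2, against 1.51%), and 3 were lower, Mrpl49, Mrps2 and Mrpl23 (2.16% of all genes). Both fl/fl-labelled libraries lay above all Dot1l(fl/+) libraries for 12 genes (10.2% of all genes) and below them for 3 (9.57% of all genes). By origin, the 10 small subunit genes particular to mitochondria had a median log2 fold change of 0.31 in Dot1l(fl/fl) and of 0.05 in Dot1l(fl/+) against Dot1l(+/+), and the 16 with a bacterial counterpart 0.23 and 0.20. In the large subunit the medians were 0.17 and 0.20 for 18 genes particular to mitochondria and 0.19 and 0.16 for 29 with a bacterial counterpart. Differences between these classes were not tested.

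The other genes of mitochondrial translation served as a comparison. Of 6 mitoribosomal proteins without an Mrp symbol, 5 were above 0 in Dot1l(fl/fl), with a median of 0.18. At an unadjusted p under 0.05, 1 was higher (4.24% of all genes). This was Aurkaip1, a late addition to the small subunit, at 40.2, 44.1 and 46.3 CPM in Dot1l(+/+), 51.8, 44.3 and 49.8 CPM in Dot1l(fl/+) and 50.7 and 59.2 CPM in the fl/fl-labelled libraries. Its log2 fold change was 0.33 ± 0.15 (edgeR, adjusted p = 0.477). Ict1, the gene now named Mrpl58, encodes a peptidyl-tRNA hydrolase built into the large subunit, and its log2 fold change was 0.17 in both genotypes. That of Chchd1, a small subunit protein, was 0.22 ± 0.18 in Dot1l(fl/fl).

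The other factors of mitochondrial translation, which are not part of this ribosome, had medians nearer to that of all genes. Their lists were not matched to the Mrp genes for exon length, and no offset was applied to these medians. The part of the length trend in this contrast was not tested. In Dot1l(fl/fl), 13 translation factors had a median log2 fold change of 0.04, with 8 above 0. At an unadjusted p under 0.05, 0 were higher (4.24% of all genes) and 0 lower (5.03% of all genes). Their smallest p values belonged to Taco1, an activator of cytochrome oxidase translation, with a log2 fold change of 0.50 ± 0.27, and Gfm2, a recycling factor, with 0.23 ± 0.17. Both rested on single libraries, Taco1 being at 0.085 without the first fl/fl-labelled library and 0.813 without the second, and Gfm2 at 0.38 and 0.062. Assembly and rRNA modification factors, 28 in number, had a median of 0.02, with 16 above 0. At an unadjusted p under 0.05, 1 was higher (3.57%, against 4.24% of all genes) and 0 lower (5.03% of all genes). It was the rRNA methyltransferase Ftsj2, with a log2 fold change of 0.57 ± 0.26. That of Rnmtl1, another rRNA methyltransferase, was 0.47 ± 0.26. The 22 genes listed as aminoacyl-tRNA synthetases, among them the amidotransferase subunits Qrsl1, Gatb and Gatc, had a median of -0.10, with 9 above 0. At an unadjusted p under 0.05, 1 was higher (4.24% of all genes), namely Gars, which also serves the cytosol, with 0.22 ± 0.10. At that level 2 were lower (5.03% of all genes). Of the latter, Lars2 was at 256, 252 and 172 CPM in Dot1l(+/+), 393, 158 and 172 CPM in Dot1l(fl/+) and 170 and 82.7 CPM in the fl/fl-labelled libraries. The first fl/fl-labelled library stood beside Dot1l(+/+) 3, and the log2 fold change of -0.84 ± 0.28 (edgeR, adjusted p = 0.311) became -0.42 when the second was left out. With a replicate block it was -1.13 (edgeR, adjusted p = 0.00107). In Dot1l(fl/+) the medians of these 3 lists were 0.01, 0.05 and 0.02.

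**Figure D5:**
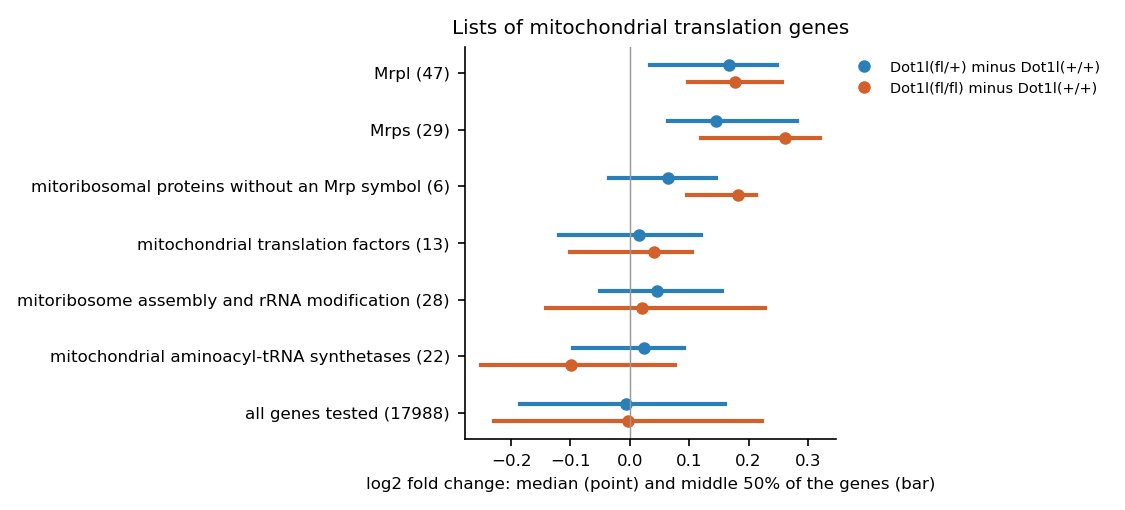
Median log2 fold change against Dot1l(+/+) (points) and the range holding the middle 50% of genes (bars) for lists of mitochondrial translation genes, with the number tested in parentheses, in Dot1l(fl/fl) (orange) and Dot1l(fl/+) (blue). Mrpl and Mrps have medians of 0.14 to 0.26. The lists of translation factors, assembly factors and synthetases (with Qrsl1, Gatb and Gatc) lie between -0.10 and 0.05. The lists were not matched for exon length.

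The rRNAs of the mitochondrial ribosome, encoded by mitochondrial DNA, were counted as well. The study's methods do not state whether rRNA was depleted or mRNA selected, and the part of such a step in these levels was not tested. That of the small subunit, mt-Rnr1, was at 313, 358 and 262 CPM in Dot1l(+/+), 365, 306 and 331 CPM in Dot1l(fl/+) and 378 and 442 CPM in the fl/fl-labelled libraries, which lay above all others. The log2 fold change was 0.40 ± 0.12 (edgeR, adjusted p = 0.265) in Dot1l(fl/fl) and 0.10 in Dot1l(fl/+). That of the large subunit, mt-Rnr2, had a log2 fold change of 0.16 ± 0.13, and its libraries overlapped, with 787–1260 CPM in Dot1l(+/+) and 1080–1210 CPM in the fl/fl-labelled libraries.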

How the data were processed

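RNA was sequenced from sorted DA neurons of 3 Dot1l genotypes. Deposited per library were whole-number counts of reads for each Ensembl gene, not normalised, which the authors made with bcl2fastq 2.17 and Trimmomatic 0.30 on GRCm38.p4 per the submitters' processing notes. The aligner, the counting program and its strand setting are not given in the sources used here, although the library kit preserved strand. Deposited tables of the authors' own DESeq2 1.10.1 comparisons (mean signal, log2 fold change, p-values) supplied gene symbols alone.

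Counts were tested in a single fit of all 8 libraries with the quasi-likelihood test of edgeR 4.0.16 (R 4.3.3), TMM normalisation and filterByExpr, without covariates, and adjusted by Benjamini-Hochberg over 17988 genes (threshold 0.05). The SE printed with an edgeR log2 fold change is its absolute value divided by the square root of its F statistic. It is approximate, since the test itself reports no SE. CPM used TMM-scaled totals, and on the log scale 2 counts were added as a prior. In CPM, 3 counts were worth 0.0694–0.216, covering counting error only. Coordinates and exon lengths came from GENCODE on GRCm38. The tests were checked on simulated counts.

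The members and lists were chosen with earlier results of these data known. Named were the genes with the highest and lowest level per exon length, the smallest unadjusted p in each comparison, the lowest log2 fold changes, and a few chosen for their identity, among them Mrpl12, Mrps12 and Mrps30. Libraries are pools, and p-values set a difference between genotypes against the spread between pools, estimated from all libraries in a fit. No pair of libraries of the same genotype agreed within sampling noise (chi-square per degree of freedom 16.98 to 40.47). Alternatives were RLE size factors, other filters, DESeq2 1.42.0, an offset for GC content and exon length (splines with 4 degrees of freedom), a replicate block, the block with that offset, a fit of the compared genotypes alone, and each library left out.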

Additional observations from a re-analysis of the deposited data

How the results depend on the processing

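With 2 Dot1l(fl/fl) libraries and differences of about 1.2-fold, single genes rested on the depth and spread of a few pools. Directions of the subunit medians against Dot1l(+/+) held under all alternatives, with sizes that moved. For Dot1l(fl/fl), the Mrpl median of 0.177 was 0.102 with the length and GC offset and 0.256 without Dot1l(+/+) 2, and ranged from 0.155 to 0.256 over left-out libraries. The Mrps median of 0.261 ranged from 0.184 to 0.328. For Dot1l(fl/+), left-out libraries gave 0.093 to 0.207 for Mrpl and 0.083 to 0.244 for Mrps. For Dot1l(fl/fl) against Dot1l(fl/+) they gave 0.001 to 0.112 for Mrpl and 0.035 to 0.120 for Mrps. The linear term gave an Mrpl median of 0.056 with the offset.

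The number of genes past the threshold was 0 in the main test and 1, Mrpl12, in Dot1l(fl/fl) without a filter on low counts (adjusted p = 0.0296, edgeR) or without Dot1l(+/+) 2 (0.0353), over left-out libraries 0 to 1. In the linear term it was 1 without a filter (0.0205), with DESeq2 (0.0326) or without Dot1l(+/+) 2 (0.0208), over left-out libraries 0 to 1, and over all genes it was then 172, 272 and 268, against 0 in the main test. Over all genes the count for Dot1l(fl/fl) was 0 in the main test, 106 without a filter, 186 with DESeq2 and 75 without Dot1l(+/+) 2. The cause was not tested. At an unadjusted p under 0.05, genes higher in Dot1l(fl/fl) numbered 5 to 13 over left-out libraries, 7 with the offset and 4 with block and offset. Lars2 passed without a filter (-0.843), with the block (-1.132) and with block and offset (-1.064), and mt-Rnr1 without a filter (0.395) and with DESeq2 (0.401).

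Correlations between same-numbered libraries were small (7 of -0.031 to 0.0453, against -0.0514 to 0.0449 for 14 others). A value with one fl/fl-labelled library recurs with opposite sign for the other, so these pairs say little. Between Dot1l(+/+) and Dot1l(fl/+), same-numbered libraries gave 0.0453, -0.0069 and 0.0382, and the others -0.0514 to 0.0113. While the study took its embryos as matched sets from each litter, no source says that library numbers mark them. The numbers were therefore not taken as pairs. With the replicate block, medians in Dot1l(fl/fl) were 0.197 for Mrpl and 0.254 for Mrps, and with block and offset 0.090 and 0.162. The linear term then gave 0.056 for Mrpl, and the Mrps median of Dot1l(fl/fl) against Dot1l(fl/+) was -0.013. With the block, 0 of the 76 genes passed (6 over all genes) and 6 of the 76 were higher in Dot1l(fl/fl) at an unadjusted p under 0.05.

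Single log2 fold changes in Dot1l(fl/fl) turned sign. With the offset these were Mrpl41 (-0.0 to the third decimal), Mrpl49 (-0.124) and Mrps12 (-0.073). With the block they were Mrpl49 (-0.054) and Mrps14 (0.053). With both they were Chchd1 (-0.007), Mrpl41 (-0.030), Mrpl49 (-0.215), Mrps12 (-0.103) and mt-Rnr2 (-0.044). Over left-out libraries, values ran for Mrpl22 from -0.556 to 0.175, Mrpl28 from -0.004 to 0.207, Mrpl32 from -0.327 to 0.343, Mrpl49 from -0.102 to 0.096, Mrps10 from -0.04 to 0.193, Mrps12 from -0.123 to 0.229, Mrps14 from -0.08 to 0.138, Mrps18a from -0.069 to 0.448, Mrps18b from -0.023 to 0.575 and for Mrps34 from -0.191 to 0.117.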

Other observations

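The processed pseudogenes of these genes, which the rule left out, were counted at levels near or above those of their parents. Mrpl23-ps1 was at 14.9, 20.1 and 14.5 CPM in Dot1l(+/+), 18.2, 15.2 and 25.8 CPM in Dot1l(fl/+) and 19.6 and 20.2 CPM in the libraries labelled Dot1l(fl/fl), beside 0.109–1.76 CPM for Mrpl23 over all libraries. Mrpl48-ps was at 19.9, 22 and 12.8 CPM in Dot1l(+/+), 22.5, 21.4 and 25.5 CPM in Dot1l(fl/+) and 23.4 and 25.8 CPM in the libraries labelled Dot1l(fl/fl), beside 22.2–34.4 CPM for Mrpl48. Mrps36-ps1 was at 1.04–3.33 CPM and Mrps36-ps2 at 0–0.486 CPM, beside 0–2.02 CPM for Mrps36. Log2 fold changes of Mrpl23-ps1 and Mrpl48-ps in Dot1l(fl/fl) were 0.27 ± 0.23 and 0.43 ± 0.22 (edgeR, adjusted p = 0.809 and 0.552). How reads shared between a gene and its pseudogene were assigned is not given in the sources used here.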
